A study of Mus musculus with 6 samples.

Results

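The markers described here are 35 genes by which astrocytes and cells of the oligodendrocyte lineage are recognised, 20 for astrocytes and 15 for oligodendrocyte progenitors, committed precursors and myelinating cells. They were chosen by name from the gene symbols, and all 35 were found among the 24340 genes of the deposited FPKM table (a level per transcript length and per library total, as computed by the authors). Poly-A RNA had been sequenced from primary microglia that were grown from the brains of newborn C57BL/6 mice, less than 3 days old, with 3 libraries in each of 2 groups. Vehicle libraries came from cells given DMSO for 1 h and C13 libraries from cells given 10 uM AG2P145D/C13 for 1 h, a small molecule that the series title calls a MOK inhibitor. Cells of both groups then received 1 ug/ml lipopolysaccharide (LPS) for 5 h, so no library shows glia without LPS. The culture dishes, litters and isolation step behind a library are not named, so the spread between libraries may be partly technical.

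Astrocytes support neurons by clearing glutamate, buffering potassium and water and supplying energy, and they respond to injury and inflammation by raising intermediate filament genes. Oligodendrocytes arise from dividing progenitors that carry PDGF receptor alpha and the NG2 proteoglycan, pass through a committed precursor stage and then wrap axons in myelin. Microglia from newborn brain are commonly grown on or shaken off mixed glial layers, in which astrocytes and oligodendrocyte progenitors are the usual other cells. Several of the markers are also made outside the glia, since fibroblasts and mural cells of vessels can carry Pdgfra, Cspg4, Gja1 and Bmp4.

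Depth, estimated from the smallest step between low FPKM values, lay between 8922745 and 11589945 fragments per library. Vehicle replicate 2 was the least like the rest. Across the 11412 genes averaging 1 FPKM or more its median correlation was 0.969, and that of each other library was 0.984 to 0.989. It was the highest of the 6 libraries in 38.5% of those genes. Its FPKM values also had the largest total, 634451 against 504674 to 534757 in the other libraries. The microglial label was checked on 20 markers, of which 19 reached a mean of 1 FPKM and Siglech was at the lower bound of the deposited values in every library. C1qc, C1qa and C1qb, subunits of a complement protein made by microglia, were the highest of them at 580 to 956 FPKM. Tmem119, Cx3cr1, P2ry12, Sall1 and Gpr34, named after their values were seen, were low, with means of 6.24, 2.38, 2.13, 1.37 and 1.10 FPKM. The other markers of that list at the limit had means of 35.6 FPKM or more. The cultures also held much connective tissue RNA. Col1a1, Col1a2 and Col3a1, the collagen genes that led the fibroblast list, lay at 1773 to 2137, 1124 to 1318 and 682 to 942 FPKM, and the smooth muscle genes Acta2 and Tagln, which led the mural list with Pdgfrb, at 1125 to 1793 and 1106 to 1820 FPKM.

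Astrocyte markers were low in every library and stood highest in C13 replicate 2. The summed level of the 20 astrocyte markers was 95.1, 98.8 and 99.8 FPKM in vehicle replicates 1, 2 and 3. In the C13 libraries it was 105 FPKM in replicate 1, 202 FPKM in replicate 2 and 117 FPKM in replicate 3. C13 replicate 2 lay at 1.73 times the next library, C13 replicate 3. Set against the summed level of the 20 microglia markers, the astrocyte sum came to 53.8 per 1000 FPKM in C13 replicate 2 and to 19.1 to 31.3 in the other libraries. Connexin 43 (Gja1) and clusterin (Clu), the most abundant of the astrocyte markers, made up much of that sum. Leaving out these genes, which was decided after their values were seen, the other 18 summed to 114 FPKM in C13 replicate 2 against 27.01 to 42.7 FPKM elsewhere. In such bulk RNA fewer cells of a type and less RNA per cell cannot be told apart.

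In the oligodendrocyte lineage the order of the libraries depended on 2 abundant genes. Its 15 markers summed to 79.6, 78.1 and 86.9 FPKM in vehicle replicates 1, 2 and 3 and to 80.3, 73.9 and 74.7 FPKM in C13 replicates 1, 2 and 3. C13 replicate 2 was the lowest of the 6 libraries in that sum, most of which came from Cspg4 and Cnp. Leaving out these genes, again decided after their values were seen, the other 13 summed to 9.60, 11.3 and 11.6 FPKM in vehicle replicates 1, 2 and 3 and to 11.4, 18.9 and 14.7 FPKM in C13 replicates 1, 2 and 3. C13 replicate 2 was then the highest library, at 1.29 times C13 replicate 3, which came second as it did in the astrocyte sum. Pdgfra and Cldn11 made up much of the sum of the 13 in C13 replicate 2.

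Averaged over the 6 libraries, 20 of the 35 markers reached 1 FPKM, 14 of them astrocyte and 6 oligodendrocyte lineage markers. C13 replicate 2 was the highest library in 14 of these 20 genes, against 11.2% of all 11412 genes at this level. In 12 of the 20 it reached at least 1.5 times the median of the other 5 libraries, as did 2.30% of all genes, and in 10 it reached 2 times that median, as did 0.824% of all genes. The median of this ratio was 1.86 over the 20 markers, 3.24 over the 14 astrocyte markers, 1.10 over the 6 oligodendrocyte lineage markers and 0.987 over all genes. That library had been named as likely to stand out when the markers were chosen, so these counts describe it and were not tested. Ntrk2 and Cldn11 reached the limit of 1 FPKM only through C13 replicate 2, with means of 0.844 and 0.674 FPKM over the other 5 libraries. Among the 18 markers that reached 1 FPKM without it, C13 replicate 2 was highest in 12 and at least 1.5 times the median in 10. Mbp and Cldn11, at means of 1.07 and 1.18 FPKM, lay just inside the limit, and Fgfr3, at 0.604 FPKM, lay just outside. Of the 6 tested markers with another highest library, vehicle replicate 2 was highest in 3, vehicle replicate 3 in 2 and C13 replicate 3 in 1.

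**Figure D1:**
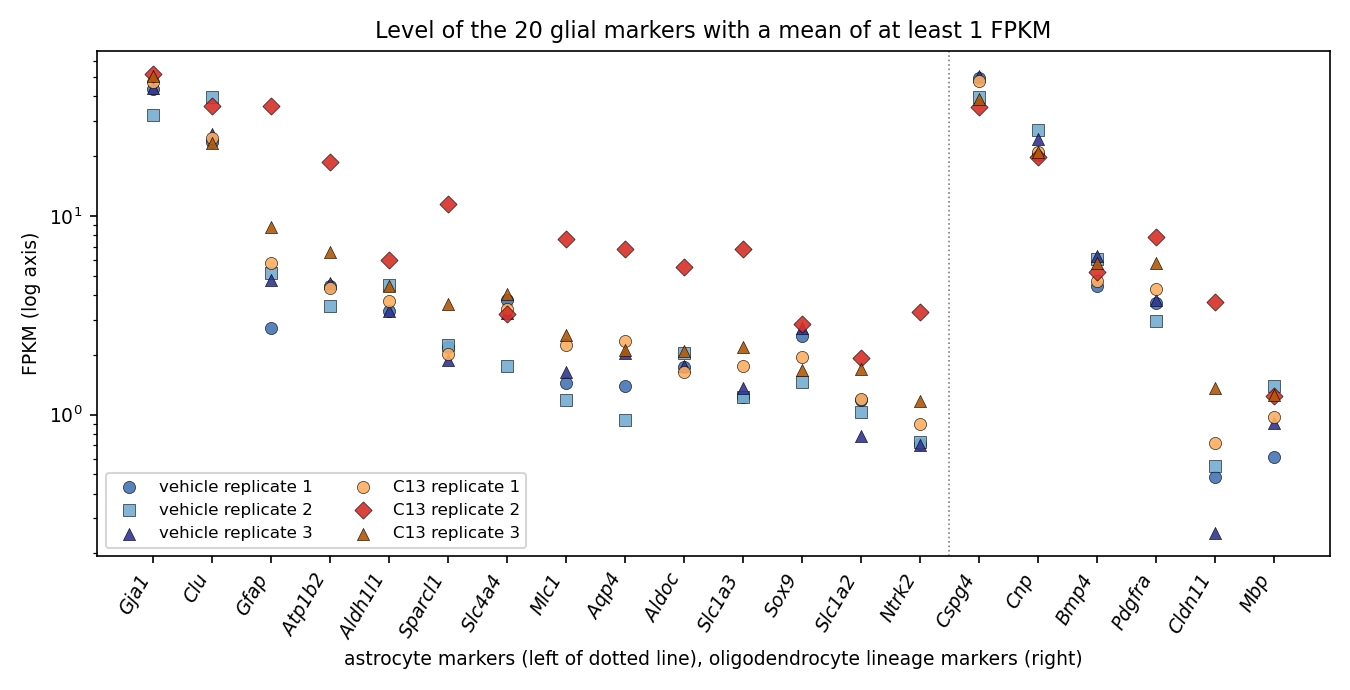
FPKM (log axis) of the 20 markers with a mean of at least 1 FPKM, 1 point per library, with astrocyte markers left of the dotted line and oligodendrocyte lineage markers right of it. The red diamond of C13 replicate 2 is the highest point in 14 genes and stands clear of the others in Gfap at 35.6 FPKM, while Cspg4 and Cnp hold the libraries close together.

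Gfap, the intermediate filament gene by which astrocytes are most often recognised, had the widest range. It measured 2.74, 5.18 and 4.74 FPKM in vehicle replicates 1, 2 and 3 and 5.80, 35.6 and 8.79 FPKM in C13 replicates 1, 2 and 3. C13 replicate 2 lay 6.87 times above the median of the other libraries and 4.05 times above the next one. Every C13 library lay above every vehicle library, although C13 replicate 1 exceeded vehicle replicate 2 only narrowly. The gene lies on the minus strand of chromosome 11 (102887336 to 102900912, GRCm38) and is protein-coding, as are all 35 markers.

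The glutamate transporters, which clear the transmitter from synapses, differed from each other. Slc1a3 (GLAST; chromosome 15, 8634124 to 8710764, minus strand) measured 1.23, 1.23 and 1.37 FPKM in the vehicle libraries and 1.75, 6.82 and 2.20 FPKM in the C13 libraries, in the order of the replicates. Slc1a2 (GLT-1; chromosome 2, 102658659 to 102790784, plus strand) measured 1.18, 1.03 and 0.784 FPKM in the vehicle libraries and 1.20, 1.92 and 1.70 FPKM in the C13 libraries. The groups did not overlap in either gene, but C13 replicate 2 exceeded the median of the others 4.98 times in Slc1a3 and only 1.63 times in Slc1a2, where C13 replicate 3 came close to it.

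Genes of the perivascular endfeet, where astrocytes meet vessels, were also highest in C13 replicate 2. The water channel gene Aqp4 measured 1.39, 0.942 and 2.04 FPKM in the vehicle libraries and 2.34, 6.82 and 2.12 FPKM in the C13 libraries. Mlc1, a membrane protein gene of the endfeet, measured 1.44, 1.19 and 1.64 FPKM in the vehicle libraries and 2.24, 7.62 and 2.53 FPKM in the C13 libraries. In both genes all 3 C13 libraries lay above all 3 vehicle libraries, with C13 replicates 1 and 3 close together and replicate 2 well above them.

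Astrocyte metabolism and ion transport genes split in their pattern. Atp1b2, the beta 2 subunit of the sodium pump, measured 4.42, 3.52 and 4.61 FPKM in the vehicle libraries and 4.35, 18.7 and 6.56 FPKM in the C13 libraries. Aldoc, the aldolase of brain glycolysis, measured 1.73, 2.04 and 1.75 FPKM in the vehicle libraries and 1.63, 5.51 and 2.08 FPKM in the C13 libraries. C13 replicate 1 fell among the vehicle libraries in Atp1b2 and was the lowest of all 6 libraries in Aldoc, so the groups overlapped in both. Aldh1l1, the folate enzyme whose promoter is widely used to mark astrocytes, measured 3.34, 4.52 and 3.32 FPKM in the vehicle libraries and 3.71, 6.01 and 4.43 FPKM in the C13 libraries. Here C13 replicate 2 was highest by a smaller margin, 1.33 times the next library, vehicle replicate 2. The bicarbonate cotransporter gene Slc4a4 measured 3.77, 1.76 and 3.23 FPKM in the vehicle libraries and 3.39, 3.22 and 4.06 FPKM in the C13 libraries. C13 replicate 2 stood below the median in this gene, and vehicle replicate 2 was the low library.

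Secreted proteins and receptors followed. Sparcl1, a secreted matrix protein gene linked to synapse formation, measured 2.18, 2.23 and 1.87 FPKM in the vehicle libraries and 2.03, 11.4 and 3.60 FPKM in the C13 libraries. Ntrk2, the receptor of brain-derived neurotrophic factor, measured 0.712, 0.730 and 0.701 FPKM in the vehicle libraries and 0.900, 3.29 and 1.18 FPKM in the C13 libraries. Both were highest in C13 replicate 2 and second in C13 replicate 3, and the groups overlapped in Sparcl1 but not in Ntrk2. Clu, a secreted chaperone gene that macrophages and stromal cells can also express, measured 23.6, 39.5 and 25.7 FPKM in the vehicle libraries and 24.7, 35.8 and 23.4 FPKM in the C13 libraries. Vehicle replicate 2 and C13 replicate 2 were the high libraries of Clu, and the other 4 lay together.

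Gja1 and the transcription factor gene Sox9, which stromal cells can also express, showed little of the pattern. Gja1 measured 43.4, 32.3 and 43.8 FPKM in the vehicle libraries and 47.2, 52.0 and 50.5 FPKM in the C13 libraries, with C13 replicate 2 only 1.03 times above the next library. Sox9 measured 2.50, 1.46 and 2.71 FPKM in the vehicle libraries and 1.96, 2.86 and 1.67 FPKM in the C13 libraries. The C13 libraries were all above the vehicle libraries in Gja1, whereas in Sox9 the libraries were mixed.

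The start regions of 4 genes are shown to set the markers that were far above the others in C13 replicate 2 (Gfap, Slc1a3 and Cldn11) beside one that was not (Gja1). Each is the 250 bases before and 50 bases after the gene's start in RefSeq on GRCm38.p6, on the strand of the gene, with capitals for matches on either strand to the STAT motif TTCNNNGAA, the NFI motif TTGGC, the SOX motif ACAAT, the AP-1 motif TGANTCA or the TATA box TATAAA. The windows are chr11:102897151-102897450 (minus strand) for Gfap, chr15:8710758-8711057 (minus strand) for Slc1a3, chr3:31149670-31149969 (plus strand) for Cldn11 and chr10:56377050-56377349 (plus strand) for Gja1.
Gfap: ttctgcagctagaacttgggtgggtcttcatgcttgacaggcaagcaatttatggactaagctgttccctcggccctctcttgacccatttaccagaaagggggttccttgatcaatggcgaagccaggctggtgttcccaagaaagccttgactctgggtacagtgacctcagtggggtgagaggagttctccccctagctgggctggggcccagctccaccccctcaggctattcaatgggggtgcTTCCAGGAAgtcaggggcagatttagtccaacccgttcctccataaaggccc
Slc1a3: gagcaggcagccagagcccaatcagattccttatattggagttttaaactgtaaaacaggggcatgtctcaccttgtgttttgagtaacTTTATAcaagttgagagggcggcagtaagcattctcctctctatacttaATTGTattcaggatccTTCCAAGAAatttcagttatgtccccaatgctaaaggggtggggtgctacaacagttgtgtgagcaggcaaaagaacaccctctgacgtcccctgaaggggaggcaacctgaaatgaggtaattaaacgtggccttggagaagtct
Cldn11: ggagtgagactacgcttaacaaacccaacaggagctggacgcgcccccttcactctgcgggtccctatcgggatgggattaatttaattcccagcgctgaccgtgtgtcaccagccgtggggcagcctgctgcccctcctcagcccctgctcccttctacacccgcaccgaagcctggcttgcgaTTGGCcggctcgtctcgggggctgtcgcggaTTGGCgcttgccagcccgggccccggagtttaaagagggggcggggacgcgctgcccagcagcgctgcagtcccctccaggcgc
Gja1: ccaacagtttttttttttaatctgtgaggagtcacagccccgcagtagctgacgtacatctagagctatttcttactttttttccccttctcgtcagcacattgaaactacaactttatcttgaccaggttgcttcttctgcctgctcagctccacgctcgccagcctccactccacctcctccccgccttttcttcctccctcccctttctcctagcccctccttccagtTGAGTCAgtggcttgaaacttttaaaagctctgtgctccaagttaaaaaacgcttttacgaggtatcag

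Gfap and Slc1a3 each held 1 STAT match, Slc1a3 also held 1 SOX match and 1 TATA box match, Cldn11 held 2 matches to the NFI motif, and Gja1 held 1 AP-1 match. RefSeq windows were matched for 26 of the 35 markers, with 31 windows in all. The STAT motif was present in 8 of the 31 windows (25.8%), against 8.30% of the 32851 windows of all genes. Of the 8, 3 were overlapping or nearby windows of 1 gene, Mag, and the rest belonged to Gfap, Slc1a3, Aldoc, Agt and Ntsr2. Mlc1 and Ntrk2, at 4.66 and 4.51 times the median of the other libraries in C13 replicate 2, had no STAT match, nor had Cldn11. Whether matches go with the level in that library was not tested. Shares for the other motifs in the 31 windows and in all windows were 48.4% and 46.7% for the NFI motif, 19.4% and 31.0% for SOX, 3.23% and 7.81% for AP-1 and 9.68% and 13.6% for the TATA box. A match describes letters and not binding.

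**Figure D2:**
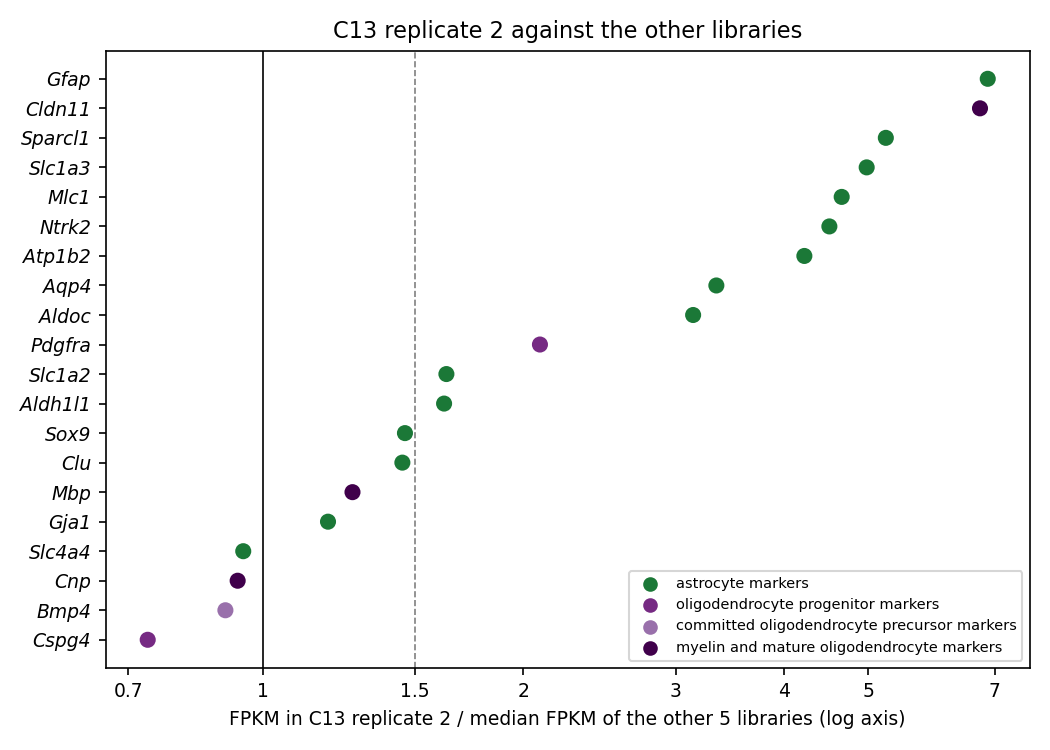
FPKM in C13 replicate 2 divided by the median FPKM of the other 5 libraries (log axis) for the 20 markers with a mean of at least 1 FPKM, coloured by lineage, with lines at 1 and 1.5. Gfap at 6.87 and Cldn11 at 6.73 lie highest, and Slc4a4, Cnp, Bmp4 and Cspg4 lie below 1.

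Progenitor markers of the oligodendrocyte lineage went different ways. Pdgfra, the receptor that drives progenitor division, measured 3.66, 2.95 and 3.76 FPKM in the vehicle libraries and 4.30, 7.87 and 5.82 FPKM in the C13 libraries. All 3 C13 libraries lay above all 3 vehicle libraries, with C13 replicate 2 highest and replicate 3 next. Its table entry shares its locus with the microRNA gene Mir7025. Cspg4, which encodes the NG2 proteoglycan and is also a pericyte gene, measured 49.7, 39.8 and 50.8 FPKM in the vehicle libraries and 47.8, 35.2 and 38.9 FPKM in the C13 libraries. C13 replicate 2 was the lowest library for Cspg4, 0.737 times the median of the others. The lineage transcription factor genes Olig1, Olig2 and Sox10 stayed at or under 0.479, 0.106 and 0.163 FPKM. Per length, Cspg4 RNA was thus far more abundant than that of the factors that define the lineage, and the list of mural cell markers led by Acta2 and Tagln was high in the same libraries, at 2357 to 3723 FPKM in sum. Nearly all of that sum was Acta2 and Tagln, with Pdgfrb and Anpep at means of 57.5 and 45.9 FPKM. The other 6 genes of the list were low, and the pericyte genes Kcnj8, Abcc9 and Rgs5 averaged 0.047, 0.025 and 1.37 FPKM. Means of Myh11, Notch3 and Des, which smooth muscle and mural cells carry, were 0.989, 1.02 and 1.58 FPKM. The list's part in the Cspg4 level was not tested.

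Committed precursors were marked by Bmp4, Gpr17 and Enpp6. The growth factor gene Bmp4, whose entry shares its locus with Gm15217, measured 4.43, 6.07 and 6.28 FPKM in the vehicle libraries and 4.71, 5.25 and 5.79 FPKM in the C13 libraries. The libraries were mixed between the groups. The receptor gene Gpr17, whose locus overlaps Lims2, stayed at or under 0.0319 FPKM and the choline phosphodiesterase gene Enpp6 at or under 0.198 FPKM.

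Among myelin and mature oligodendrocyte genes, the 2 defining ones were not detected. Mog and Mobp, which encode proteins of myelin, were listed at 0.01 FPKM, the lowest value of the table, in all 6 libraries. A count of 0 allows up to 3 fragments, which would be 0.152 to 0.197 FPKM for Mog and 0.0788 to 0.102 FPKM for Mobp at the estimated depths, counting error only. These limits use the longest annotated transcript and would be higher with a shorter one. Mag, a myelin adhesion gene, and Ugt8a, which makes a myelin lipid, lay at or under 0.327 and 0.0503 FPKM. Cnp, an enzyme gene of non-compact myelin that other cells also express, measured 20.2, 27.0 and 24.5 FPKM in the vehicle libraries and 21.1, 19.8 and 21.1 FPKM in the C13 libraries. Mbp, the myelin basic protein gene, whose locus also yields golli transcripts in immune cells, measured 0.614, 1.40 and 0.910 FPKM in the vehicle libraries and 0.977, 1.24 and 1.26 FPKM in the C13 libraries. Neither gene separated the groups. Cldn11, the tight junction gene of myelin, which is also made by cells of the meninges, differed from them. It measured 0.486, 0.550 and 0.253 FPKM in the vehicle libraries and 0.721, 3.70 and 1.36 FPKM in the C13 libraries. All C13 libraries were above all vehicle libraries, and C13 replicate 2 was 6.73 times the median of the others.

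The remaining 15 markers lay under a mean of 1 FPKM and were not tested, and their values rest on few fragments. Estimated fragments per library, from FPKM, depth and the longest annotated transcript, show how few. For genes with several transcripts these estimates can be too high. The smallest values above 0 were 1.84 for Ntsr2 and 1.58 for Enpp6, where 1 fragment should give about 1. The numbers given below for these genes are therefore likely overstated. Olig1, a transcription factor gene of the lineage, had about 1, 1 and 2 fragments with vehicle and 2, 12 and 4 with C13. Olig2, its neighbour on chromosome 16 and the factor that starts the lineage, had about 0, 2 and 0 with vehicle and 0, 3 and 1 with C13. The highest library of both was C13 replicate 2, but for Olig2 the difference is 1 fragment. Sox10, which directs myelin genes, had about 4, 0 and 1 fragments with vehicle and 2, 3 and 3 with C13, with vehicle replicate 1 highest. All 6 astrocyte markers under the limit were highest in C13 replicate 2. The matrix proteoglycan gene Bcan had about 41 fragments there against 4 to 13 elsewhere. The neurotensin receptor gene Ntsr2 had about 11 against 0 to 2, and the angiotensinogen gene Agt about 18 against 0 to 6. Connexin 30 (Gjb6) had about 17 fragments against 1 to 10. The growth factor receptor gene Fgfr3 and the calcium-binding protein gene S100b had about 40 and 6 there, against 17 to 34 and 2 to 5 elsewhere. By contrast Enpp6 and Mag were highest in C13 replicate 1, with about 11 and 9 fragments against 0 to 3 and 2 to 4 elsewhere. Without any limit on level, C13 replicate 2 was the highest library in 23 of the 33 markers detected in at least 1 library, against 15.2% of 17532 genes.

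**Figure D3:**
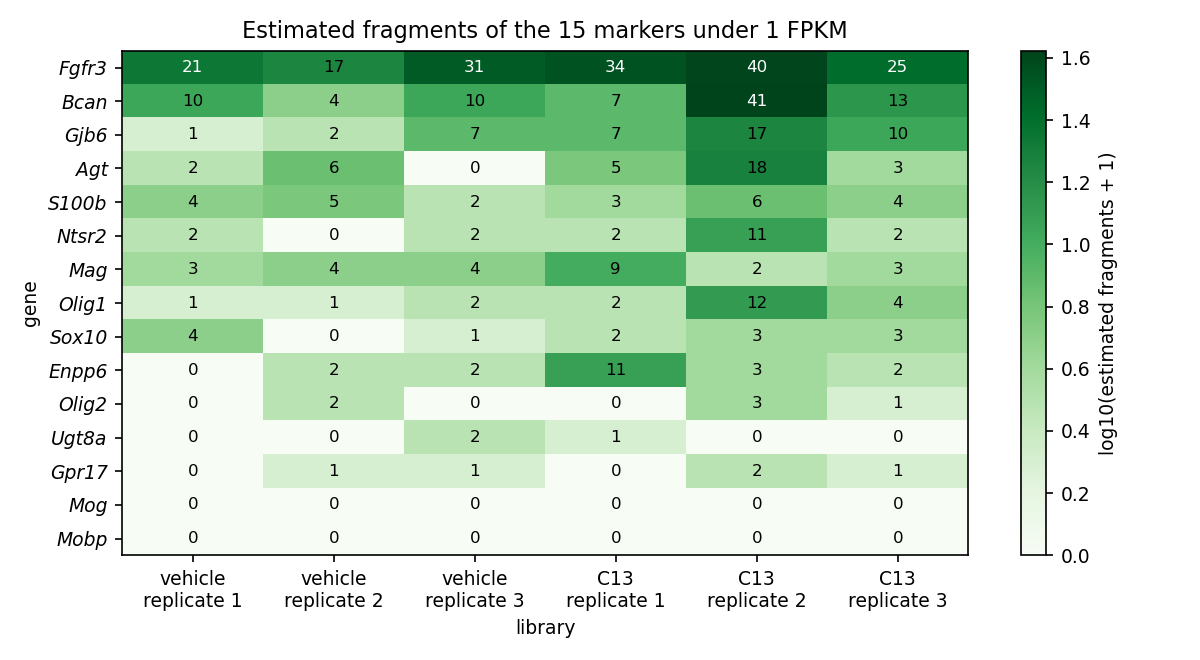
Estimated fragments (rounded numbers, colour as log10 of the number plus 1) of the 15 markers under a mean of 1 FPKM, genes in rows and libraries in columns. Bcan, Agt, Ntsr2 and Olig1 are highest in the column of C13 replicate 2 with 41, 18, 11 and 12 fragments, and Mog and Mobp are at 0 throughout. The numbers use the longest annotated transcript and are likely too high for Ntsr2 and Enpp6.

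A second order appeared below C13 replicate 2. Among the 14 markers in which that library was highest, C13 replicate 3 came second in 11, against 32.5% of the 1274 genes with the same highest library. With C13 replicate 2 set aside, C13 replicate 3 was the highest of the other 5 libraries in 12 of the 20 markers, against 15.4% of all genes. Gfap, Atp1b2, Sparcl1, Pdgfra and Cldn11 were among these genes. The median ratio of C13 replicate 3 to the median of the 4 libraries left was 1.29 over the 20 markers and 0.986 over all genes.

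The study compared C13 with vehicle, and in that comparison no marker passed. Fitted with limma on log2(FPKM + 1) over the 11412 genes and adjusted by the Benjamini-Hochberg method, 0 of the 20 markers were higher and 0 were lower with C13, as were 0% of all genes in either direction, while 6 markers and 837 genes had an unadjusted p under 0.05. The smallest adjusted p of a marker was 0.524, for Pdgfra, with a change of 0.62 (SE 0.19) on this scale and all 3 C13 libraries above all vehicle libraries. The largest change was that of Gfap at 1.40 (SE 0.58, limma adjusted p = 0.66), with means of 4.22 ± 1.30 FPKM in the vehicle libraries and 16.7 ± 16.4 FPKM in the C13 libraries (SD, n = 3 each). The SD of the C13 group was about as large as its mean, with replicate 2 far above the others. Slc1a3 had 1.28 ± 0.0797 and 3.59 ± 2.81 FPKM, Sparcl1 2.096 ± 0.194 and 5.68 ± 5.03 FPKM, and Cldn11 0.430 ± 0.156 and 1.93 ± 1.57 FPKM in the vehicle libraries and C13 (SD, n = 3 each). Changes of 15 markers lay above 0 and of 5 below, with a median of 0.39 against -0.00 over all genes, of which 49.9% lay above 0. The groups did not overlap in 9 of the 20 markers, all of them higher with C13, against 6.83% of all genes on that side. They were Gfap, Aqp4, Slc1a2, Slc1a3, Gja1, Mlc1, Ntrk2, Pdgfra and Cldn11. For groups that do not overlap the exact two-sided permutation test must give p = 0.1, the smallest that 3 libraries against 3 can give. That p therefore adds nothing to the count. Such counts cover only the markers that reached the limit, of which Ntrk2 and Cldn11 did so through a C13 library.

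Without C13 replicate 2 the larger changes were smaller. Gfap then changed by 0.68 (SE 0.27), Mlc1 by 0.49 (SE 0.14), Cldn11 by 0.50 (SE 0.18), Pdgfra by 0.44 (SE 0.17), Aqp4 by 0.42 (SE 0.21) and Slc1a3 by 0.38 (SE 0.13). Aldoc changed by 0.00 (SE 0.14), so that its difference between the groups rested on C13 replicate 2. Gja1 and Slc1a2, at 0.30 (SE 0.16) and 0.29 (SE 0.16), were close to their changes of 0.33 and 0.38 with all libraries. Gja1 depended more on vehicle replicate 2, its lowest library, without which its change was 0.19, and the change of Slc4a4, which has the same lowest library, then went from 0.25 to 0.01. A few small changes lay farther from 0 without C13 replicate 2, at 0.30 for Slc4a4, -0.25 for Clu instead of -0.07 and -0.18 for Sox9 instead of -0.02. The median over the 20 markers fell from 0.39 to 0.28, 15 still lay above 0, against 49.9% of all genes, and again 0 passed (lowest limma adjusted p = 0.93). In that fit 5 of the 20 markers and 432 of the 11412 genes had an unadjusted limma p under 0.05.

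**Figure D4:**
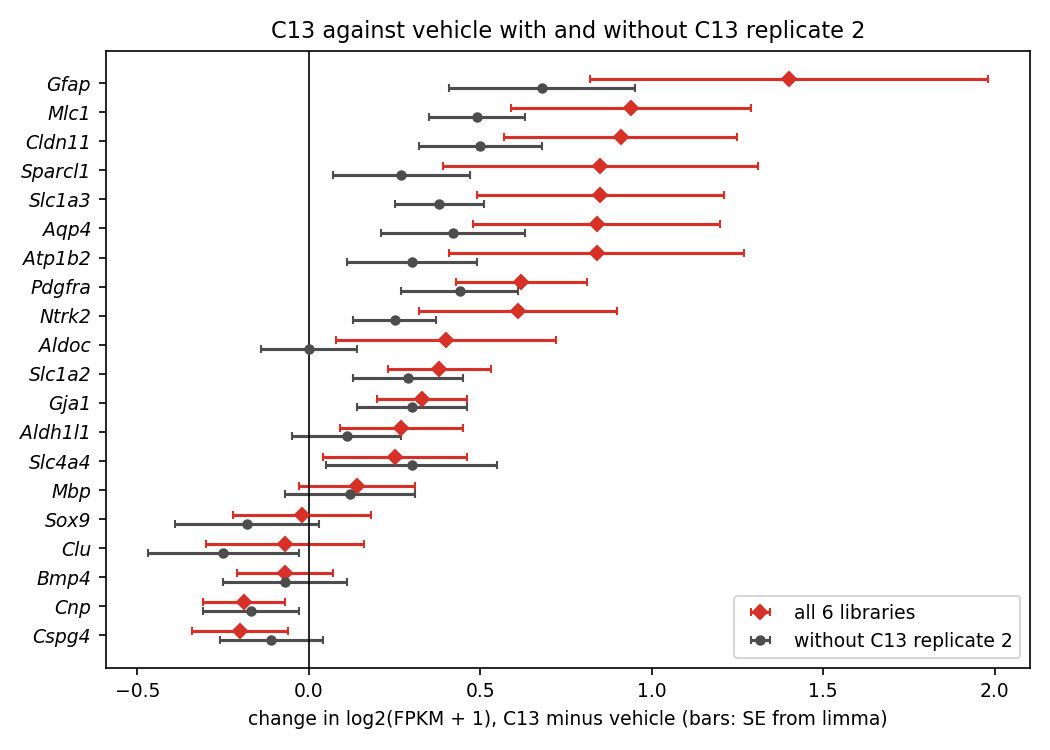
Change in log2(FPKM + 1), C13 minus vehicle, for the 20 markers with a mean of at least 1 FPKM, with all 6 libraries (red diamonds) and without C13 replicate 2 (grey circles), with bars for the SE from limma. Gfap moves from 1.40 to 0.68 and Aldoc from 0.40 to 0.00 when the library is left out, while Gja1 goes from 0.33 to 0.30 and Slc4a4 from 0.25 to 0.30.

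Other genes of astrocytes, from a list of 22 that shares no gene with the markers, were read beside them. Of these 8 reached a mean of 1 FPKM, and 6 of the 8 were highest in C13 replicate 2, against 11.2% of all genes. The secreted protease gene Htra1, the thyroid hormone deiodinase gene Dio2 and the glutamine synthetase gene Glul led the list in level. Glul, which turns the glutamate taken up by astrocytes into glutamine, measured 29.6, 25.5 and 30.2 FPKM in the vehicle libraries and 29.2, 44.7 and 32.5 FPKM in the C13 libraries. Dio2 measured 36.4, 26.6 and 38.3 FPKM in the vehicle libraries and 39.04, 44.1 and 42.02 FPKM in the C13 libraries, whereas Htra1 was highest in vehicle replicate 2 at 109 FPKM and second in C13 replicate 2 at 107 FPKM. The metallothionein gene Mt3, named after its values were seen, had 23.6 FPKM in C13 replicate 2 and 5.74 to 8.69 FPKM in the other libraries. It was the only one of the 8 at 2 times the median of the other libraries there, against 0.824% of all genes. At least 1.5 times was reached by 3 of the 8, against 2.30% of all genes, and the median ratio of the 8 was 1.29. Fgfbp3, which encodes a binding protein of fibroblast growth factors and was also named after its values were seen, went the other way, with 1.36 FPKM in C13 replicate 2 and 1.61 to 4.12 FPKM elsewhere.

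Genes linked to reactive astrocytes followed the markers only in part. Of 20 genes 19 reached the limit, and 5 of these (26.3%) were highest in C13 replicate 2, against 11.2% of all genes. Vehicle replicate 2 was highest in 6 (31.6%), against 38.5% of all genes. The median ratio of C13 replicate 2 to the other libraries was 0.939, while 4 of the 19 reached 1.5 times, as did 2.30% of all genes. The chemokine gene Cxcl10, the protease inhibitor gene Timp1 and the pentraxin gene Ptx3 led the list at 5281 to 7156, 2956 to 5496 and 1634 to 1844 FPKM, levels that macrophages and stromal cells exposed to LPS can reach as well. Each was lower in all 3 C13 libraries than in all 3 vehicle libraries, and none passed limma's test. In the list 8 of the 19 genes were lower in this way, against 9.78% of all genes. The groups were apart in the other direction in 1 of the 19, against 6.83% of all genes. Lcn2 and Serpina3n, named after their values were seen and often used to mark reactive astrocytes, were highest in C13 replicate 2 at 215 and 20.05 FPKM, against 88.1 to 167 and 5.00 to 7.70 FPKM elsewhere.

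Of 24 other oligodendrocyte lineage genes 4 reached 1 FPKM and 6 were listed at the lowest value in every library. C13 replicate 2 was highest in 0 of the 4, against 11.2% of all genes. The matrix proteoglycan gene Vcan led with 37.7, 22.03 and 39.1 FPKM in the vehicle libraries and 38.9, 28.9 and 35.3 FPKM in the C13 libraries, ahead of Tcf7l2 and Ptprz1 at 2.56 to 3.71 and 0.869 to 1.83 FPKM. Vehicle replicate 2 was the low library of Vcan, and fibroblasts make this gene too.

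Lists for other cell types were read in the same way. Summed fibroblast markers were 4054 to 4601 FPKM, with C13 replicate 2 at 4582 FPKM. Against 2.30% of all genes, 2 of 10 fibroblast genes were at least 1.5 times the median of the other libraries there. Those genes, Dcn and Lum, named after their values were seen, are small matrix proteoglycan genes of connective tissue and had 165 and 35.2 FPKM in C13 replicate 2 against 79.5 to 104 and 15.2 to 19.6 FPKM elsewhere. Of 7 mural cell markers at the limit 0 reached 1.5 times the median in C13 replicate 2, nor did any of the 5 endothelial markers led by Esam, Flt1 and Cdh5 or of the 2 neuron markers Stmn2 and Tubb3. For microglia markers the count was 0 of 19, with a summed level of 3747 FPKM in C13 replicate 2 and 3728 to 5160 FPKM elsewhere. Ttr, the choroid plexus gene of thyroid hormone transport and the only gene of its list at the limit, had 5.30 FPKM in C13 replicate 2, 11.3 FPKM in vehicle replicate 2 and 0.787 to 1.96 FPKM in the other 4. Whether other cells carried these RNAs into C13 replicate 2 together with the astrocyte markers was not tested.

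**Figure D5:**
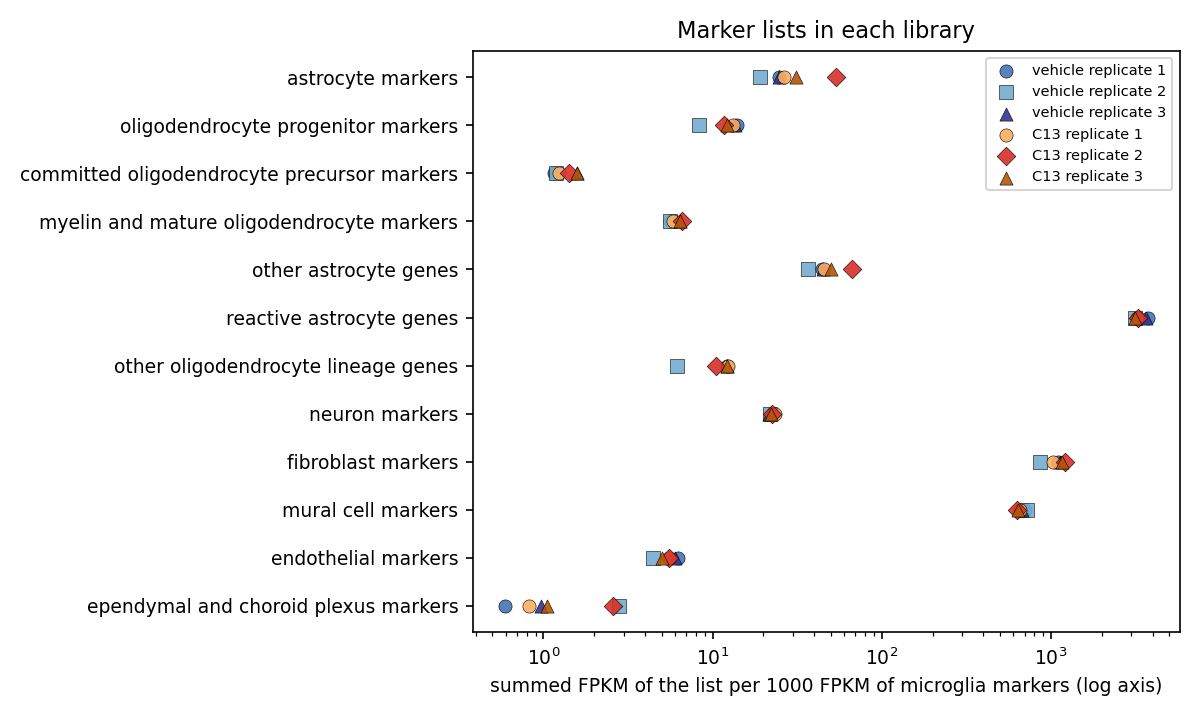
Summed FPKM of each marker list per 1000 FPKM of the 20 microglia markers (log axis), 1 point per library. C13 replicate 2 lies apart for the astrocyte markers, at 53.8 against 19.1 to 31.3, while the fibroblast and mural lists lie far above the astrocyte and oligodendrocyte lineage markers, at 869 to 1220 and 629 to 722, and the reactive astrocyte list lies highest, at 3130 to 3740.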

How the data were processed

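Per the submitters' processing notes, TopHat2 2.1.0 and Cufflinks were used on mm10. Which annotation, which Cufflinks release and which strand setting they used is not given in the sources used here. FPKM values were deposited by the authors, 1 per gene and library, with 0.01 FPKM as the lowest value. Sample descriptions tie the columns to samples, and titles give the groups. Members and lists were chosen with earlier results of these data known.

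FPKM values were transformed to log2(FPKM + 1), which understates changes of low genes, and the groups compared with limma 3.58.1 in R 4.3.3 (intensity trend, two-sided) over the 11412 genes averaging at least 1 FPKM, with p-values adjusted by the Benjamini-Hochberg method at a threshold of 0.05. The fit was tested on simulated data. Positions are from GENCODE M21 on GRCm38, the assembly named mm10 by UCSC. Depth was read from the first step above the lowest value, worth 1 fragment, in 100 to 123 genes per library with 1 annotated transcript of at least 1500 nt. Every marker is described; of each other list the 3 genes with the highest mean were named, and others are said to be chosen later. FPKM is relative to the library total, so a level can be read only against the other genes of its library. Alternatives were other pseudocounts, limits, scalings and weights, a block on replicate number, and each library left out.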

Additional observations from a re-analysis of the deposited data

How the results depend on the processing

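No marker passed limma's test with all 6 libraries or under any of the 16 alternatives run. The lowest limma adjusted p among these was 0.0792, for Cspg4 (-0.43) with the block on the description number. That fit rests only on the libraries whose description number occurs in both groups. Over all genes the counts higher and lower with C13, 0 and 0 in the comparison as reported, were 7 higher with quantile normalization, 2 higher with rescaling to TPM, 1 higher without the intensity trend, and 18 higher and 24 lower with array weights. Leaving out 1 library gave 0 to 47 higher and 0 to 122 lower, the upper values without vehicle replicate 2. The causes were not tested. Rescaling to TPM moved the median of all genes by 0.13.

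Directions of small changes depended on the setting. Rescaling to TPM gave 0.06 for Clu, 0.07 for Sox9 and 0.05 for Bmp4, and array weights gave 0.10 for Clu and 0.09 for Bmp4, all below 0 as reported. Across the libraries left out, Clu ran from -0.25 to 0.15, Sox9 from -0.21 to 0.09 and Bmp4 from -0.20 to 0.01. The count of markers highest in C13 replicate 2 was 23 without the limit on level, over 33 markers.

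Libraries with the same title number had deviations correlated by 0.09, 0.13 and 0.10, and each of the 6 correlated best with its own number. The deviations were taken from the group means, so these matches are not independent of each other. They are a weak hint from the data and not from the design. With the replicate block 0 genes were called, and 801 instead of 837 had an unadjusted limma p under 0.05. Among the 20 markers 8 instead of 6 had one. Sample descriptions carry other numbers, of which 3 and 5 occur in both groups (correlations of -0.10 and 0.10). A replicate block on these description numbers gave 13 of the 20 markers and 1789 genes an unadjusted limma p under 0.05. With it 16 genes were called higher and 24 lower, and the change was 0.22 for Clu and 0.05 for Bmp4. Vehicle replicate 2 and C13 replicate 1 have no partner by these numbers and do not inform that change. It rests on vehicle replicate 1 beside C13 replicate 2 and vehicle replicate 3 beside C13 replicate 3. Without vehicle replicate 2, tried after the data were seen, C13 replicate 2 was the highest library in 15 of 20 markers. Leaving out another library can only raise this count or keep it, so it is no check. The share over all genes was not computed for this setting. The 2 most abundant genes of each lineage, left out after the data were seen, moved the ratio of C13 replicate 2 to the highest other library from 1.73 to 2.67 in the summed astrocyte markers (without Clu and Gja1) and from 0.85 to 1.29 in the summed oligodendrocyte lineage markers (without Cnp and Cspg4). At the estimated depths the markers under 1 FPKM rest on few fragments, so their order between libraries is uncertain.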
